A study of Homo sapiens with 6 samples.

Results

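Kinesins are motor proteins that walk along or take apart microtubules, and their genes were followed here in human fibroblasts that entered mitosis after activation of oncogenic Ras. The members were all genes of the deposited expression table whose symbol has the form KIF or KIFC followed by a number and at most one letter from A to C. The pattern matched 47 of the 63009 genes read, which carry 42 symbols, and 28 of them averaged 1 FPKM or more across all 6 libraries and are described by name. FPKM counts the fragments of a gene, scaled by transcript length and by the mapped fragments of the library. By textbook role, 13 of the 28 were mitotic kinesins, 12 were transport kinesins and 3 were other kinesins.

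The cells were ERRAS cells, IMR90 primary human lung fibroblasts transduced with a retrovirus encoding H-RasV12 fused to the ligand-binding domain of the estrogen receptor, so that tamoxifen switches the oncoprotein on. One group of 3 libraries came from uninduced cells and the other group of 3 from cells induced for 4 days, which the labels give as 100 nM tamoxifen and the study's methods in ng/ml of 4-hydroxytamoxifen. Both groups were arrested with 1 µM dimethylenastron (DME), and the cells that had come loose in mitosis were washed off and kept. According to the labels the mitotic index was above 90%. DME inhibits Eg5, the product of the member gene KIF11, so the protein was blocked in every library, and no library without DME was analysed here. Poly(A) RNA was sequenced. Steps between low FPKM values gave depths, relative to uninduced library 1, of 0.95 and 1.17 for the other uninduced libraries and of 1.13, 0.847 and 0.972 for the induced ones, and the expression table gives no absolute depth. Nothing in the labels says that the libraries came from separate cultures, although the study describes independent repeats, and the p-values measure the spread between these libraries.

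In a dividing cell, mitotic kinesins push the spindle poles apart, move and align chromosomes, set the length of microtubules and build the midzone where the cell is cut. Their genes are switched on late in the cell cycle, mostly through promoters that carry a CCAAT box and a cell cycle genes homology region (CHR). Most transport kinesins carry vesicles, organelles, mRNA and ciliary cargo outward along microtubules in dividing and resting cells alike.

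The 5 mitotic kinesin genes that passed the test all fell after Ras induction, and the transport kinesins moved both ways. Of 13 mitotic kinesins, KIF20A, KIF18B, KIF23, KIF4A and KIF18A were called lower and none was called higher, where 5.67% of the 13993 tested genes were called lower and 16.7% were called in either direction. A gene was called when its limma p, adjusted by Benjamini and Hochberg, was no higher than 0.05. The median log2 fold change of the 13 mitotic kinesins was -0.29, against 0.10 over all tested genes, and all 13 values were below 0, as were those of 37.3% of tested genes. Of 12 transport kinesins, KIFC2, KIF3A and KIF3B were called higher, where 11% of tested genes were, and KIF17 was called lower. The 3 higher calls fell to 0 without induced library 1 or uninduced library 2, to 1 without induced library 3 or uninduced library 1 and to 2 without uninduced library 3. The transport kinesins had a median of -0.12. Fold changes compare induced with uninduced cells after adding 1 to FPKM and taking log2, so changes of weakly expressed genes come out too small. In these bulk samples fewer cells in a given stage and less RNA per cell cannot be told apart.

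**Figure D1:**
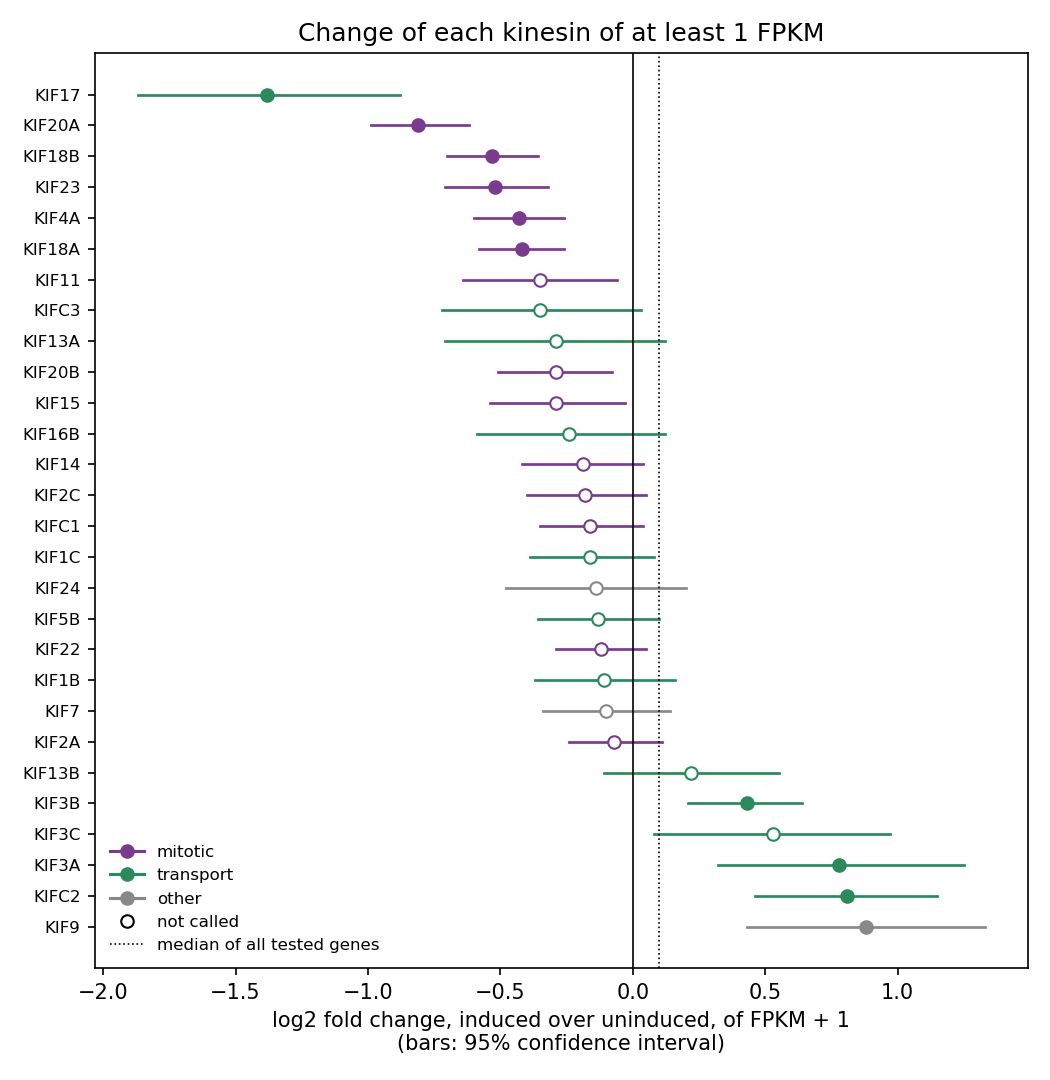
Log2 fold change of FPKM + 1 (induced over uninduced cells, x axis) of the 28 kinesins of at least 1 FPKM, as limma estimates (filled where called) with 95% confidence intervals, coloured by role, the dotted line being the median of all tested genes (0.10). The mitotic kinesins lie between -0.81 and -0.07, and the transport kinesins between -1.38 and 0.81.

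Summed over the mitotic kinesins, the level was 960.3, 970.6 and 1033 FPKM in the uninduced libraries and 744, 772 and 746 FPKM in the induced ones. All 3 induced sums lay below all 3 uninduced sums, with a ratio of the means of 0.763. The transport kinesins summed to 362, 348 and 306 FPKM in uninduced and to 329, 309 and 307 FPKM in induced cells, and these ranges overlapped. Mitotic kinesins made up 71.5%, 72.4% and 76.2% of all kinesin FPKM in the uninduced libraries and 67.8%, 70.1% and 69.4% in the induced ones.

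Promoters are shown for called members from both classes, the pair of mitotic kinesins called lower with the largest change and the transport kinesins called higher that had an entry. Windows from 250 bases before to 50 bases after the transcription start were taken from RefSeq (GRCh38.p14), where 25 of the 28 members had an entry (not KIF13B, KIFC2 or KIFC3), the first entry being used for genes with several. They were searched on both strands for the CHR letters TTTGAA or TTCGAA and for the CCAAT letters, and the matches found are in capitals. Those of KIF20A (chr5:138178862-138179161, plus strand) and KIF18B (chr17:44947724-44948023, minus strand) belong to the mitotic kinesins. Those of KIF3A (chr5:132737497-132737796, minus strand) and KIF3B (chr20:32277401-32277700, plus strand) belong to the transport kinesins.
KIF20A: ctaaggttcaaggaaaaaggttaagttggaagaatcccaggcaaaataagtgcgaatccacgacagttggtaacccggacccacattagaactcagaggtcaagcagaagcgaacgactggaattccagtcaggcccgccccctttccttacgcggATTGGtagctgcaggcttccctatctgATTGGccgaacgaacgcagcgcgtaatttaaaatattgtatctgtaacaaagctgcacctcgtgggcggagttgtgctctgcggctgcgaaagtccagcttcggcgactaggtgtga
KIF18B: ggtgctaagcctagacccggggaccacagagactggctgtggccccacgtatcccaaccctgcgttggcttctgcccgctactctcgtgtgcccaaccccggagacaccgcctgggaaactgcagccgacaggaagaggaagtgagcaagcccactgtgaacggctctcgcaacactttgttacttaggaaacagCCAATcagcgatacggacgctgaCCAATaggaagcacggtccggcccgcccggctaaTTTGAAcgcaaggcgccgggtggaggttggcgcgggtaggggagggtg
KIF3A: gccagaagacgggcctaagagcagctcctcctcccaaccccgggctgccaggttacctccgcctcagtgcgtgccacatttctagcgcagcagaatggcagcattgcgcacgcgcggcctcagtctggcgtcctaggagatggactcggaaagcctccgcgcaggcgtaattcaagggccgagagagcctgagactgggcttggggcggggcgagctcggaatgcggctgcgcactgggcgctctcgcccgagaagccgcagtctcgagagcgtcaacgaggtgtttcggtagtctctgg
KIF3B: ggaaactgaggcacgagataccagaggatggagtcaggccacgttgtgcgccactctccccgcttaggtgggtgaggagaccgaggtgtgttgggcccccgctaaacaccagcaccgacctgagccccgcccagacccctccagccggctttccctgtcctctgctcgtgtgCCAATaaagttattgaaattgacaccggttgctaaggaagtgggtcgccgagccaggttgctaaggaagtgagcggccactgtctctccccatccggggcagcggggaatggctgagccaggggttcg
The KIF20A window held CCAAT on the minus strand, starting 94 and 67 bases upstream of the start. It held neither TTTGAA nor TTCGAA, the only CHR letters searched. The KIF18B window held CCAAT starting 55 and 32 bases upstream and TTTGAA at position 3 of the transcript. The KIF3B window held CCAAT 78 bases upstream, and the KIF3A window held neither motif.

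Matches were frequent among the mitotic kinesins. A CHR match was present in 10 of 13 mitotic windows (76.9%) and in 1 of 9 transport windows, KIF5B, against 16.4% of the 34943 promoter windows in the table and 11.4% of the 8593 windows of tested genes matched by symbol. A CCAAT match was present in 10 of 13 mitotic and 3 of 9 transport windows, against 34.6% of all windows. Both motifs stood in 9 of 13 mitotic windows (69.2%), in 1 of 9 transport windows (KIF5B), in 1 of 3 other kinesin windows (KIF24) and in 6.4% of all windows. In each of the 9 mitotic windows every CCAAT match began upstream of the CHR match, as in KIF24 but not in KIF5B. No CHR match overlapped a CCAAT match in a kinesin window. Of the 5 called mitotic kinesins 4 had both, as did KIF11, KIF14, KIF20B, KIF22 and KIFC1, which were not called. A match is a string of letters, and no binding was measured.

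Among motors of the central spindle and cytokinesis, KIF20A fell most. Standard errors of log2 fold changes are given as SE. KIF20A (MKLP2) relocates the chromosomal passenger complex to the midzone at anaphase. Its gene (ENSG00000112984, chromosome 5 of GRCh37 from 137514408 to 137523412, plus strand) measured 172, 179.5 and 195 FPKM in uninduced and 101, 109 and 101 FPKM in induced cells. The groups did not overlap, and the means differed 1.76-fold, with a log2 fold change of -0.81 (SE 0.08, limma adjusted p 0.00279). It was the most abundant mitotic kinesin, with 16.4% of their summed FPKM.

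KIF23 (MKLP1), which bundles midzone microtubules in the centralspindlin complex, is encoded on chromosome 15 of GRCh37 from 69706585 to 69740766. It measured 158, 155 and 154 FPKM in uninduced and 104, 119 and 103 FPKM in induced cells. The lowest uninduced value exceeded the highest induced one, and the log2 fold change was -0.52 (SE 0.08, limma adjusted p 0.0101). KIF20B, a motor of late cytokinesis, measured 60.0 ± 5.65 FPKM (SD, n = 3) in uninduced and 48.6 ± 1.65 FPKM (SD, n = 3) in induced cells, with a log2 fold change of -0.29 that was not called (adjusted p = 0.0705 from limma). KIF14, which recruits citron kinase to the midbody, had a log2 fold change of -0.19 and overlapping groups. The 4 motors of this role summed to 427 ± 14.6 FPKM (SD, n = 3) in uninduced and 287 ± 11 FPKM (SD, n = 3) in induced cells.

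Of the motors that move chromosomes or act on microtubule ends, 3 of 6 were called lower, where 5.67% of tested genes were. KIF18B, which promotes the shortening of astral microtubules, measured 42.7, 42.6 and 43.7 FPKM in uninduced and 30.1, 30.4 and 28.1 FPKM in induced cells. Its groups lay far apart relative to their SDs of 0.614 and 1.23, and the log2 fold change was -0.53 (SE 0.07, limma adjusted p 0.00661). KIF4A, a chromosome-bound motor that also stops the growth of midzone microtubules, measured 77.2, 75.0 and 76.9 FPKM in uninduced and 53.2, 59.1 and 57.4 FPKM in induced cells. The groups did not overlap, with a log2 fold change of -0.43 (SE 0.07, limma adjusted p 0.0125).

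KIF4A has a near copy without introns, KIF4B, which holds 13.3% of the 50-base stretches of KIF4A transcripts. KIF4B itself was listed at 0.196 to 0.324 FPKM, far below the 53.2 to 77.2 FPKM of KIF4A, and how reads were shared between the pair was not tested. KIF18A, which damps the movements of chromosomes at the metaphase plate, measured 56.9, 56.9 and 59.6 FPKM in uninduced and 43.9, 43.2 and 41.7 FPKM in induced cells, with no overlap. Its log2 fold change was -0.42 (SE 0.07, limma adjusted p 0.0112), and without induced library 3 the adjusted p was 0.0522. The microtubule depolymerases KIF2C (MCAK) and KIF2A had log2 fold changes of -0.18 and -0.07, and the chromosome-arm motor KIF22 (KID) had -0.12, none of them called. In KIF2A, 18.7% of exon bases lie opposite exons of DIMT1 (mean 14.3 FPKM). The library kit named in the labels does not mark strand, so within that overlap reads of the pair cannot be told apart by strand.

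The 3 motors listed under spindle bipolarity were not called, where 16.7% of tested genes were. KIF11 (Eg5), the target of DME, measured 49.7, 47.7 and 54.1 FPKM in uninduced and 42.8, 33.1 and 42.8 FPKM in induced cells. Every induced value was below every uninduced one, but the log2 fold change of -0.35 (standard error 0.12, 95% confidence interval from -0.64 to -0.06) had an adjusted p of 0.0931 from limma. KIF15, a motor that can take over from Eg5, measured 28.0 ± 3.81 FPKM (SD, n = 3) in uninduced and 22.6 ± 0.235 FPKM (SD, n = 3) in induced cells, a log2 fold change of -0.29 with an adjusted p of 0.118 from limma. KIFC1 (HSET), a minus-end motor that pulls poles together, had a log2 fold change of -0.16 and was likewise not called.

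Groups did not overlap in 11 of the 13 mitotic kinesins, all with the induced libraries below, where 12.8% of tested genes separate in that direction. Of the transport kinesins 3 lay above in every induced library and 1 below, and 27.1% of tested genes lie above. KIF14 and KIF2A overlapped. An adjusted p above 0.05 does not show that a gene was unchanged.

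**Figure D2:**
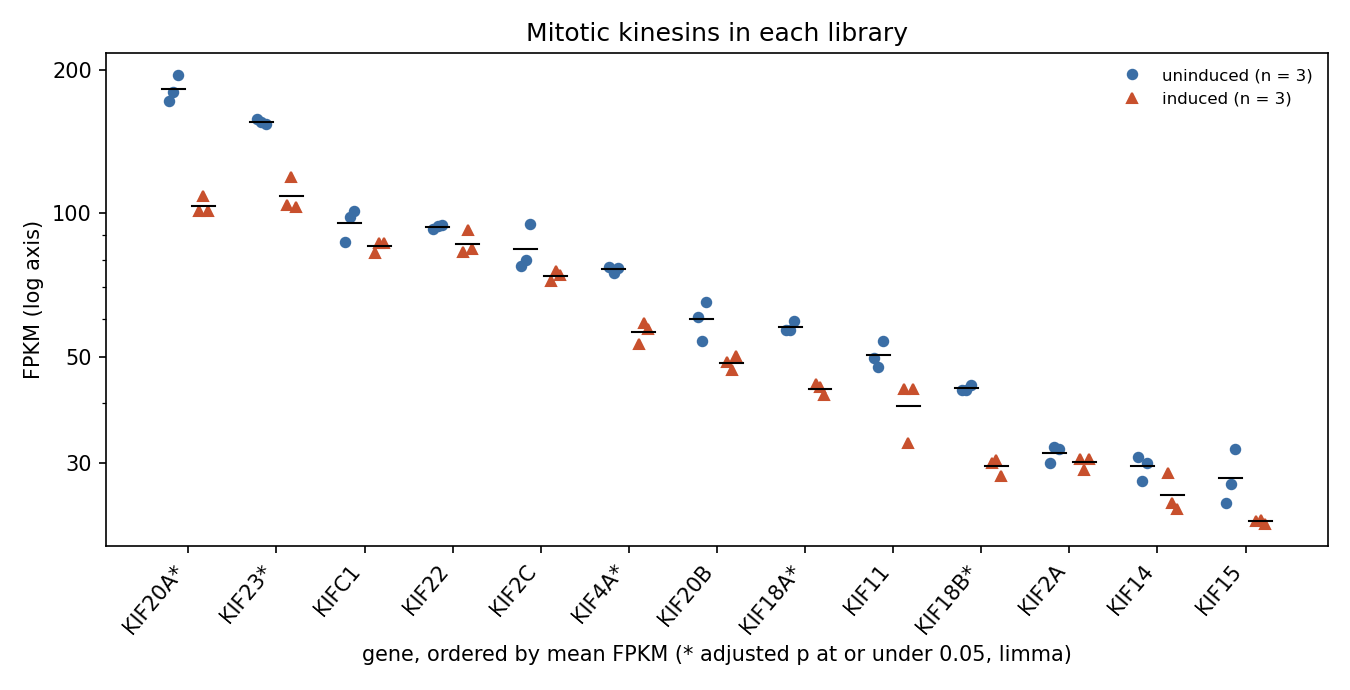
FPKM (log axis) of the 13 mitotic kinesins with a mean of at least 1 FPKM in each of the 3 uninduced (circles) and 3 induced libraries (triangles), with black bars for group means and asterisks for genes called by limma. KIF20A and KIF23 have the highest levels, and the induced values lie below all uninduced ones in 11 of the 13 genes.

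The direction of the mitotic kinesins was compared with that of proteins they work with. Of 13 measured partners of mitotic kinesins, 9 were called lower and none higher, where 5.67% and 11% of tested genes were, with a median log2 fold change of -0.46. Among the called partners the largest falls were those of CIT (citron kinase, log2 fold change -0.68, adjusted p = 0.0250 from limma), PRC1, the midzone crosslinker that KIF4A and KIF20A bind (-0.66, adjusted p = 0.00336), HMMR (-0.60, adjusted p = 0.0398) and ANLN (anillin, -0.48, adjusted p = 0.0153). With 1 library left out at a time, PRC1 was called in 6 of 6 fits, ANLN in 4, CIT in 2 and HMMR in 1. CENPE, the kinetochore kinesin whose symbol lies outside the pattern, measured 60.4, 58.9 and 81.4 FPKM in uninduced and 45.7, 44.1 and 43.96 FPKM in induced cells. Its groups did not overlap, but its call (log2 fold change -0.56, adjusted p = 0.0340 from limma) held in 1 of 6 such fits, the one without uninduced library 3, with adjusted p from 0.0194 to 0.102. STARD9, another kinesin outside the pattern, had a log2 fold change of -0.02.

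Ratios within a library were computed for 11 pairs. Given here are 4 of them, chosen after their values were seen, and they do not stand for the others. KIF23 and RACGAP1 form centralspindlin, and their FPKM ratio was 0.736, 0.747 and 0.737 in uninduced and 0.667, 0.771 and 0.703 in induced cells. The ranges overlapped, RACGAP1 itself having a log2 fold change of -0.46. The ratio of KIF4A to PRC1 was 0.263, 0.252 and 0.239 in uninduced and 0.279, 0.312 and 0.296 in induced cells, without overlap. The ratio of KIF20A to PRC1 went the other way, from 0.585, 0.604 and 0.605 to 0.531, 0.573 and 0.521, again without overlap. The ratio of KIF14 to CIT was 0.605, 0.571 and 0.447 in uninduced and 0.826, 0.816 and 0.647 in induced cells, also without overlap.

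Called genes among the markers of mitosis and of S phase were all lower. Of 13 mitotic-state genes that are not kinesins, 6 were called lower, where 5.67% of tested genes were, and none higher (median -0.27), among them TOP2A (log2 fold change -0.63), CCNA2 (-0.50), CENPF (-0.50) and CCNB2 (-0.33). Their summed FPKM was 2385, 2362 and 2377 in uninduced and 1886, 2106 and 2039 in induced cells, and CCNB1, the most abundant, made up 23.5%. Of 12 tested S-phase genes 8 were called lower, beside the same 5.67%, and none higher (median -0.77), with TYMS at -1.67, MCM3 at -1.30, MCM6 at -1.26 and MCM5 at -0.95. Their sums were 714, 758 and 729 FPKM against 453, 552 and 438 FPKM, RRM2 making up 41.4%. The part of these shifts in the change of the mitotic kinesins was not tested. With 1 library left out at a time CCNA2 was called in 4 of 6 fits, CENPF in 3, CCNB2 in 2 and TOP2A in 1, and the 4 named S-phase genes in all 6.

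Among 12 regulators of late cell-cycle promoters, 2 were called in each direction as deposited, beside 11% of tested genes higher and 5.67% lower, and the median was -0.03. After quantile normalization 0 were called higher and 4 lower, beside 1044 and 1109 of the 13993 tested genes. After upper-quartile scaling 0 and 3 were, beside 921 and 1101, with a median of -0.12 in both. MYBL2 (B-MYB) measured 51.7, 57.1 and 44.6 FPKM in uninduced and 11.4, 17.4 and 10.1 FPKM in induced cells, a log2 fold change of -1.93 (SE 0.20, limma adjusted p 0.00338). RBL1 was called lower (-0.60), and NFYA and E2F4 were called higher (0.33 each). The calls of RBL1, NFYA and E2F4 held in 1, 0 and 0 of the 6 fits with 1 library left out, and that of MYBL2 in 6.

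**Figure D3:**
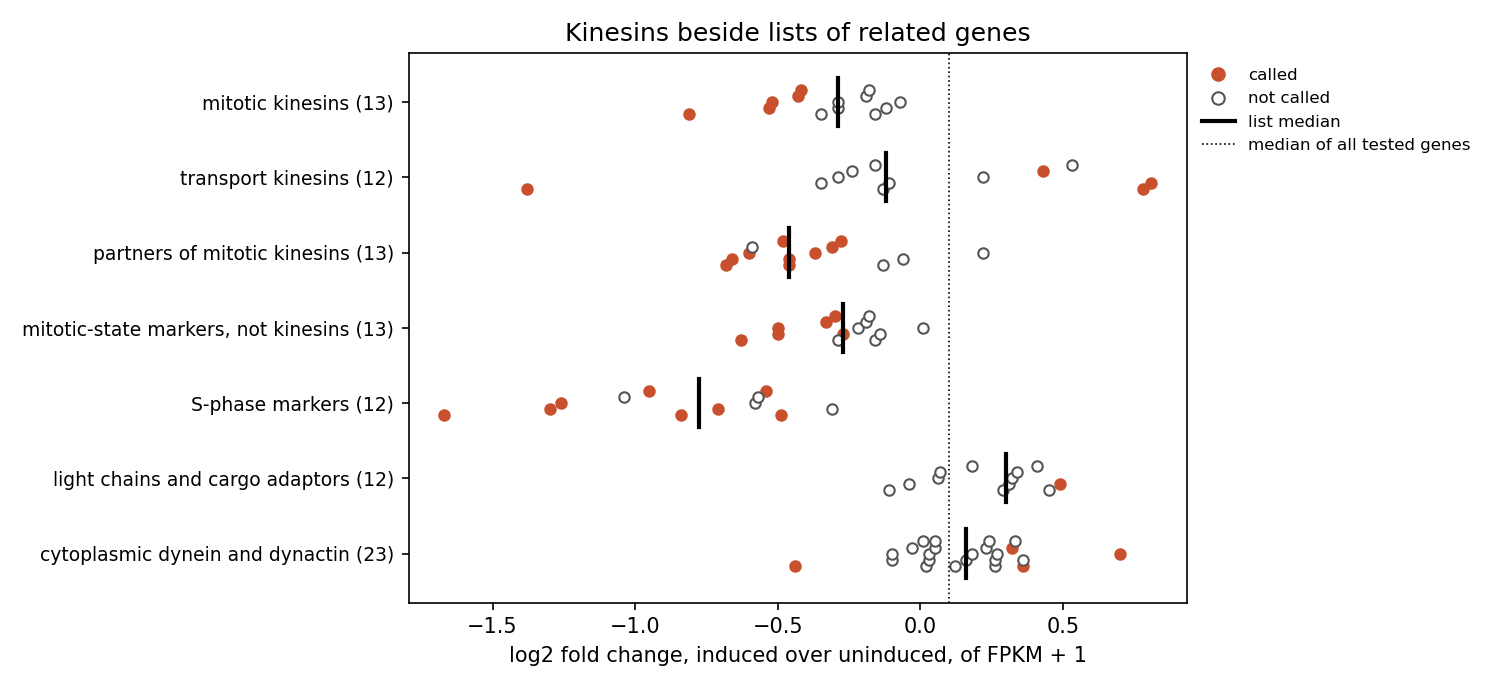
Log2 fold changes (induced over uninduced, FPKM + 1) of mitotic and transport kinesins beside 5 lists of related genes, with the number of tested genes in parentheses, filled points for genes called by limma, black bars for list medians and a dotted line for the median of all tested genes (0.10). The medians of mitotic kinesins (-0.29), their partners (-0.46), mitotic-state markers (-0.27) and S-phase markers (-0.77) lie below 0, and that of light chains and adaptors is 0.30.

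Among transport kinesins, 2 of the 4 kinesin-2 genes were called higher and 1 lower, where 11% and 5.67% of tested genes were. KIF3A and KIF3B are the motor subunits of heterotrimeric kinesin-2, which carries cargo in cilia and vesicles in the cytoplasm. KIF3B (chromosome 20 of GRCh37 from 30865454 to 30922814, plus strand) measured 21.7, 19.9 and 18.5 FPKM in uninduced and 28.8, 26.1 and 26.7 FPKM in induced cells. All induced values exceeded all uninduced ones, and the log2 fold change was 0.43 (SE 0.09, limma adjusted p 0.0245). The adjusted p was 0.0776 without induced library 1, 0.0763 without induced library 3 and 0.0825 without uninduced library 2.

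KIF3A (chromosome 5 of GRCh37 from 132028320 to 132073330, minus strand) measured 3.47, 3.83 and 3.84 FPKM in uninduced and 7.45, 5.17 and 9.26 FPKM in induced cells. The groups did not overlap, although the induced values spread from 5.17 to 9.26 FPKM, and the log2 fold change was 0.78 (SE 0.19, limma adjusted p 0.0384). The call held in 1 of the 6 fits with 1 library left out, that without induced library 2 (adjusted p = 0.0171). It was lost without induced library 1 (0.106) or 3 (0.1) and without uninduced library 1 (0.107), 2 (0.0980) or 3 (0.0747). It was also lost when each library was scaled to a common upper quartile (0.0641), without a filter on low values (0.0985) and with a stricter filter of 5 FPKM (0.0528).

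KIF3C, the alternative partner of KIF3A, measured 12.99 ± 2.43 FPKM (SD, n = 3) in uninduced and 19.2 ± 3.93 FPKM (SD, n = 3) in induced cells. Its log2 fold change of 0.53 was not called (adjusted p = 0.104 from limma), and the groups overlapped through induced library 2. The cargo-binding subunit KIFAP3, named beside its motors after its values were seen, measured 3.85, 3.43 and 3.67 FPKM in uninduced and 6.05, 4.37 and 5.16 FPKM in induced cells and was not called (log2 fold change 0.41, adjusted p = 0.0903 from limma). KIF17, the homodimeric kinesin-2, went the other way, with 4.06, 2.87 and 3.72 FPKM in uninduced and 1.02, 0.860 and 0.412 FPKM in induced cells. The groups stood apart by a 4.65-fold difference of means, and its log2 fold change of -1.38 (SE 0.21, limma adjusted p 0.00909) was called. It reached the 1 FPKM threshold through its uninduced mean of 3.55 FPKM, its induced mean being 0.763 FPKM, and without a filter on low values the adjusted p was 0.0294. It was called in all 6 fits with 1 library left out.

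Outside kinesin-2, KIFC2, a C-terminal motor first described in neurons, measured 1.32, 1.32 and 1.55 FPKM in uninduced and 3.23, 3.52 and 2.84 FPKM in induced cells. The groups did not overlap at these low levels, and the log2 fold change was 0.81 (SE 0.15, limma adjusted p 0.0154). The adjusted p was 0.0523 without induced library 1, 0.0528 without uninduced library 1 and 0.0557 without uninduced library 2. In KIFC2, 17.8% of exon bases lie opposite exons of FOXH1, which had a mean of 0.451 FPKM. KIFC3, also a C-terminal motor, had a log2 fold change of -0.35 that was not called, at 95.8 ± 14.7 FPKM (SD, n = 3) in uninduced and 75.1 ± 12.5 FPKM (SD, n = 3) in induced cells.

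KIF5B, the heavy chain of kinesin-1 and the most abundant transport kinesin, measured 127, 124 and 106 FPKM in uninduced and 115, 102 and 108 FPKM in induced cells. The groups overlapped, with a log2 fold change of -0.13 (SE 0.10, limma adjusted p 0.381). KIF5A and KIF5C, the neuronal heavy chains, were under 1 FPKM. In the kinesin-3 family, which carries vesicles and early endosomes, none of 5 was called by limma, where 16.7% of tested genes were. Their log2 fold changes were -0.29 for KIF13A, -0.24 for KIF16B, -0.16 for KIF1C, -0.11 for KIF1B and 0.22 for KIF13B, and the groups overlapped in each. None of the 5 had an unadjusted limma p under 0.05, and without uninduced library 3 the adjusted p of KIF13A was 0.0494.

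Of 3 other kinesins, KIF9, a motor of motile cilia, was called higher, where 11% of tested genes were. It measured 4.73, 4.58 and 2.91 FPKM in uninduced and 9.18, 6.85 and 8.77 FPKM in induced cells. The groups did not overlap, and the log2 fold change was 0.88 (SE 0.19, limma adjusted p 0.0256). The adjusted p was 0.0811 without induced library 1, 0.0875 without induced library 3, 0.0568 without uninduced library 2 and 0.0704 without a filter on low values. Of its exon bases 14.8% lie opposite the antisense transcript KIF9-AS1, which had a mean of 0.308 FPKM. KIF7, a regulator of Hedgehog signalling at the cilium tip, and KIF24, which restrains cilium assembly, had log2 fold changes of -0.10 and -0.14 and were not called. Of the exon bases of KIF7 10.8% lie opposite TICRR, which had a mean of 3.64 FPKM.

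**Figure D4:**
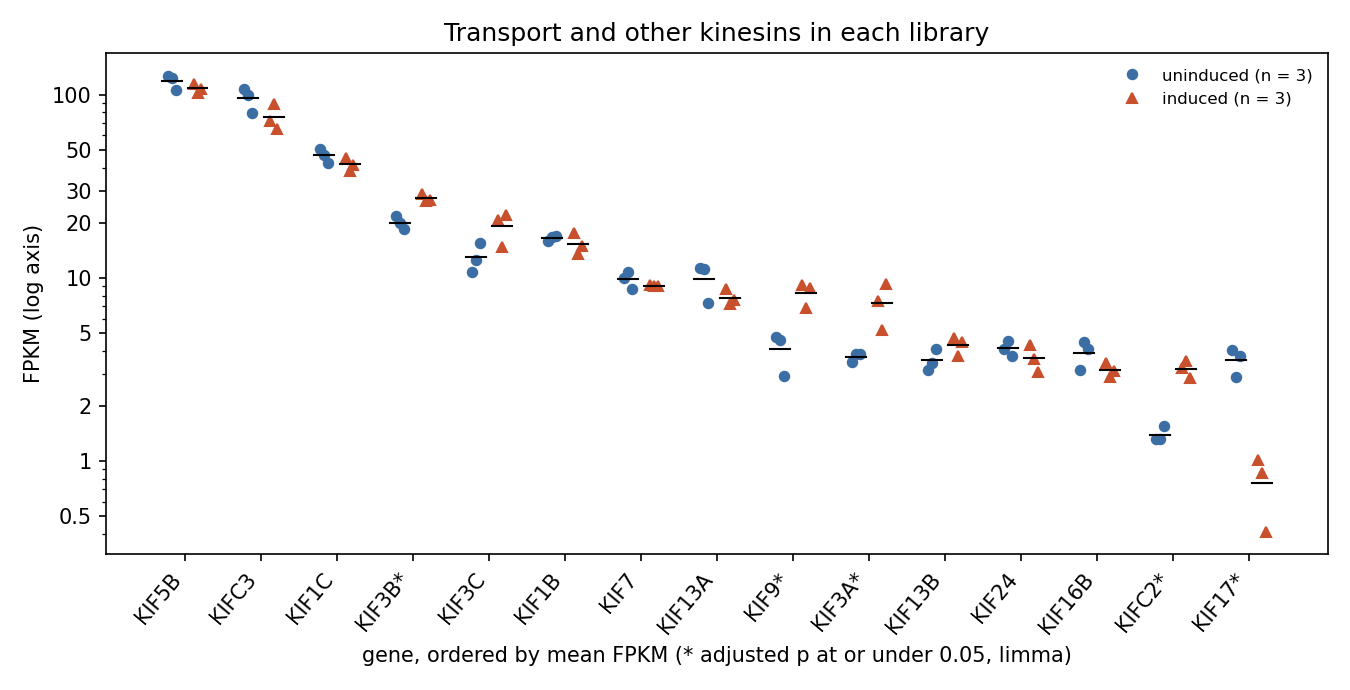
FPKM (log axis) of the 12 transport and 3 other kinesins with a mean of at least 1 FPKM in each of the 3 uninduced (circles) and 3 induced libraries (triangles), with black bars for group means and asterisks for genes called by limma. KIF3B, KIF9, KIF3A and KIFC2 are higher and KIF17 lower in every induced library than in every uninduced one.

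Light chains and cargo adaptors had a median log2 fold change of 0.30, and 1 of 12, the kinesin-1 light chain KLC4, was called higher and none lower, where 11% of tested genes were called higher and 5.67% lower. KLC4 measured 3.89 ± 0.108 FPKM (SD, n = 3) in uninduced and 5.87 ± 0.641 FPKM (SD, n = 3) in induced cells (log2 fold change 0.49, adjusted p = 0.0341 from limma), and it was called in 0 of the 6 fits with 1 library left out and not after upper-quartile scaling (adjusted p = 0.0698). Of 23 genes of cytoplasmic dynein and dynactin, the motor that runs opposite to most kinesins, 3 were called higher and 1 lower (median 0.16) as deposited, shares near those of all tested genes, and 1 in each direction after either rescaling (median 0.07 by quantiles and 0.05 by upper quartile). As deposited these were DYNLT3 (log2 fold change 0.70), ACTR1B (0.36), DYNC1LI1 (0.32) and NDE1 (-0.44), which were called in 2, 1, 0 and 2 of the 6 fits with 1 library left out.

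The remaining 14 symbols were below the threshold or listed at 0. KIFC2 (mean 2.30 FPKM) and KIF17 (2.16 FPKM) lay just above it, and KIF21B (0.980 FPKM) and KIF27 (0.910 FPKM) just below. The other members above 0 were KIF21A, KIF4B, KIF5C, KIF5A, KIF26B, KIF6, KIF25, KIF12, KIF1A and KIF26A, with means from 0.00168 to 0.656 FPKM. KIF2B and KIF19 were listed at 0 in every library, as were 5 second entries of KIFC1, KIFC3 and KIF5C.

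The labels were checked against the data. HRAS, for which reads of the cells' own gene and of the transgene cannot be told apart, measured 1174, 1176 and 1140.3 FPKM in uninduced and 1439, 1847 and 1473 FPKM in induced cells. The groups did not overlap, and the call (log2 fold change 0.44, adjusted p = 0.0431 from limma) held only in the fit without induced library 2 when 1 library was left out, with adjusted p from 0.0452 to 0.124, and was lost after upper-quartile scaling (0.0925), without a trend (0.0612) and without a filter on low values (0.166). EREG (3.78), DUSP6 (3.24), SPRY4 (1.01) and PHLDA1 (0.87), known targets of Ras signalling, were called higher, where 11% of tested genes were. These genes and HRAS were chosen with earlier results of these data known, so their calls are no independent check of the labels. SPRY4 held its call in 2 of 6 fits with 1 library left out. It held in neither rescaling (limma adjusted p = 0.0517 by quantiles and 0.0629 by upper quartile). Of 8 fibroblast markers, VIM was the most abundant at 2149 ± 71.4 FPKM (SD, n = 3) in uninduced and 2248 ± 320.0 FPKM (SD, n = 3) in induced cells. Of these markers 4 were called lower, where 5.67% of tested genes were: DCN (log2 fold change -3.26), LUM (-2.01), COL1A2 (-1.30) and THY1 (-1.19). The sums of all 8 were 4869, 5524 and 5436 FPKM against 3186, 4281 and 3039 FPKM, and their part in the kinesin changes was not tested. The endothelial markers summed to at most 0.0988 FPKM with PECAM1 at 0. Not all markers of other cell types were absent. CD68, the only leukocyte marker tested, averaged 27.8 FPKM in uninduced and 33.2 FPKM in induced cells (log2 fold change 0.25, not called). The epithelial markers KRT5 (11.7 and 11.6 FPKM) and KRT14 (10.2 and 8.45 FPKM) were not called (0.08 and -0.21). Of 4 neuron markers SYT1 alone reached 1 FPKM, at 4.73 and 8.97 FPKM. It was called higher (0.79, limma adjusted p 0.0144), a call that held in 2 of 6 fits with 1 library left out. The origin of these transcripts was not tested. Under the threshold and named after their values were seen, EPCAM (1.24 FPKM in uninduced and 0.288 FPKM in induced cells) and MAP2 (0.446 and 0.200 FPKM) lay lower in every induced library than in every uninduced one.

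The count of called genes in each direction depended on the scaling of the libraries. As deposited, 66.1% of all called genes were higher (1543 higher and 793 lower), and this share was 48.5% after quantile normalization (1044 and 1109) and 45.5% after upper-quartile scaling (921 and 1101). The median over all tested genes moved from 0.10 to 0.01 and 0.00, that of the mitotic kinesins from -0.29 to -0.39 and -0.40, and that of the transport kinesins from -0.12 to -0.20 and -0.23. Both rescalings moved these medians down, so values already below 0 as deposited were not put to a test by them, and KIF20B was then called lower as well (adjusted p = 0.0427 and 0.0416 from limma). The transport kinesins called higher numbered 3 after quantile normalization and 2 after upper-quartile scaling.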

How the data were processed

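Poly(A) RNA of 6 libraries of mitotic ERRAS cells was sequenced, and the authors trimmed reads with Trim Galore 0.3.0, aligned them to hg19 with TopHat2 and calculated the deposited FPKM per gene and library with Cufflinks. The column names give the group and a number, not the sample. Its 18 unnamed columns were set aside, and 120 genes with more than 6 values, none of them a kinesin, were left out, with 1 row that held no numbers. A deposited Cuffdiff table holds the authors' own fold changes and p-values and was not used.

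The 13993 genes averaging 1 FPKM or more were tested two-sided by limma 3.58.1 under R 4.3.3 on log2(FPKM + 1), using lmFit and eBayes with a trend and no block, with Benjamini-Hochberg adjustment over all of them, and the procedure was tested on simulated data. An exact permutation test of 3 against 3 libraries cannot go below p = 0.1. Gene positions and exons come from GENCODE 44 on GRCh37 (hg19), matched by identifier for 42 of the 47 rows. Python 3.11.15 with pandas 2.3.3, numpy 2.4.6 and matplotlib 3.10.9 made tables and figures. Members and gene lists were chosen with earlier results of these data known. By rule, each kinesin of at least 1 FPKM is named, with all values for called members, KIF11 and KIF5B. Of other lists up to 4 called genes with the largest change are named, or the most abundant gene where none was called. Promoters are those of up to 4 called members, 2 mitotic and 2 transport. Alternatives were another pseudocount, other filters, other scalings, no trend, a replicate block and each library left out.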

Additional observations from a re-analysis of the deposited data

How the results depend on the processing

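The number of mitotic kinesins called lower was 5, between 4 and 5 when 1 library was left out and 5 or 6 under every other alternative tried. The number of transport kinesins called higher was 3 and ranged from 0 to 3 with 1 library left out. It was 1 with a filter of 5 FPKM, where KIFC2 was not tested and KIF3A lost its call, and 2 or 3 otherwise. Over all genes 2336 were called, between 998 and 1956 with 1 library left out and 1518 without a filter on low values, where more genes were tested. Among the other named genes, calls lost without a filter were those of CCNB2, CENPE, CIT, DYNLT3, E2F4, HMMR, HRAS, KLC4, NFYA, RBL1, SPRY4 and TOP2A (limma adjusted p from 0.0587 to 0.166). Without a trend those of CCNB2, CENPE, DYNC1LI1, E2F4, HMMR, HRAS, NFYA and SPRY4 were lost (0.0503 to 0.0719). After both rescalings those of ACTR1B, DYNC1LI1, E2F4, NFYA and SPRY4 were lost (0.0517 to 0.12), and after upper-quartile scaling also those of HRAS and KLC4. With fewer libraries each fit has fewer degrees of freedom. Of 359 values of the 28 kinesins under 13 alternatives, 337 kept their direction and their side of the threshold, 19 kept the direction and lost the call, 3 kept it and gained a call, and none changed sign. KRT5 measured 8.72, 18.7 and 7.77 FPKM in uninduced and 11.1, 11.7 and 11.9 FPKM in induced cells. Its log2 fold change of 0.08 was -0.02 after quantile normalization and -0.02 after upper-quartile scaling. It was -0.07 without uninduced library 1, 0.44 without uninduced library 2 and -0.14 without uninduced library 3. The cause was not tested. Fitted with a replicate block on the column number, 2310 genes, 5 mitotic kinesins lower and 3 transport kinesins higher were called, and no kinesin changed its call, but those of RBL1 (adjusted p = 0.0682 from limma), NFYA (0.0703), E2F4 (0.0537), KLC4 (0.0595), HRAS (0.0526) and DYNC1LI1 were lost. Same-numbered libraries had correlations of -0.00266, 0.0433 and 0.0481 across 13993 genes in their deviations from the group means. Uninduced libraries 2 and 3 correlated best with the induced library of the same number, and uninduced library 1 with induced library 2 (0.0311). The column numbers are not tied to the samples, and they were not taken as pairs. No read counts were used, so the counting error of low genes such as KIFC2 and KIF17 is unknown.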

Other observations

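Within the list of mitotic-state genes the levels differed widely. CCNB1 measured from 439.6 to 589 FPKM over the 6 libraries, whereas CDK1, the kinase it activates, measured 5.93, 2.99 and 2.13 FPKM in uninduced and 3.23, 1.56 and 3.40 FPKM in induced cells, and TOP2A from 4.93 to 10.3 FPKM. CDK1 was named after its values were seen, and whether the deposited FPKM of CDK1 and TOP2A reflect their RNA levels was not tested. KIF20A, at a mean of 142.8 FPKM, ranked 705 among the 13993 tested genes by level, KIF23 ranked 797 and KIF5B ranked 955.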
